A study of Mus musculus with 29 samples.

Results

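The 10 genes described here carry nitric oxide and cGMP signalling in the heart and were taken by symbol from 29,955 genes of the deposited table: the nitric oxide synthases Nos1, Nos2 and Nos3, the enzymes Ddah1 and Ddah2, the soluble guanylate cyclase subunits Gucy1a3 and Gucy1b3, the cGMP-dependent protein kinase Prkg1, and the phosphodiesterases Pde5a and Pde2a. RNA sequencing of male C57BL/6J mouse hearts followed the induction of heart failure (HF) and the recovery from it. HF was induced from 3 months of age with 0.3 mg/ml L-NAME and 1% NaCl in the drinking water, given for 5 weeks. Angiotensin II was added after the first week at 0.7 mg/kg/day from a 28-day osmotic pump. The mice then received normal water, and the pump ran out. L-NAME is an inhibitor of the nitric oxide synthases, so the HF animals were under a drug that acts on the pathway itself, together with salt and angiotensin II, and the agents cannot be told apart. Used here were 2 libraries of HF week 3 and 3 of HF week 5, taken during and at the end of induction. The hearts of Recovery had passed through the same induction, with 2 libraries of week 7, 2 of week 9, 3 of week 11, 2 of week 13 and 5 of week 19. Control week 19 held 5 libraries of mice outside the HF protocol that matched Recovery week 19 in age. They were 14 weeks older than the mice of HF week 5, so age and treatment cannot be told apart in HF against control. The controls labelled for week 5 were left out, because 4 labelled samples stand against 5 columns. The tissue is the whole heart or ventricle by the labels and the frozen apical portion by the methods.

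Nitric oxide is made from arginine by the synthases, of which Nos3 is the endothelial form, Nos1 the neuronal form and Nos2 the inducible form. It diffuses to neighbouring smooth muscle cells and cardiomyocytes, where it activates soluble guanylate cyclase, a dimer of an alpha and a beta subunit that makes cGMP. cGMP activates protein kinase G, which relaxes vessels and dampens growth signals in cardiomyocytes, and phosphodiesterases break it down. The DDAH enzymes degrade asymmetric dimethylarginine, a natural inhibitor of the synthases.

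Gucy1a3, Nos3, Ddah2 and Gucy1b3, of the 8 genes tested, were called higher at HF week 5 than in Control week 19. At the same threshold 11.6% of all genes tested rose. Only the call of Gucy1a3 held with any 1 HF week 5 library left out. The promoters of the cyclase subunits and of Ddah2 are shown because both subunits build one enzyme and were called in the same comparison as Ddah2. Among the HF week 5 libraries, library 1 was highest for Gucy1a3 and lowest for Gucy1b3. Common regulation of these genes was not tested. Entries were found for 8 of the 10 genes, with 14 windows in all. Each sequence is the 250 bases before the transcription start in RefSeq on GRCm38.p6, another build than that of the deposited values. Gucy1b3 (Gucy1b1 in RefSeq) is at chr3:82074712-82074961 on the minus strand, Gucy1a3 (Gucy1a1, the farther upstream of its 2 starts) at chr3:82145651-82145900 on the minus strand, and Ddah2 at chr17:35058785-35059034 on the plus strand. The sequences read 5′ to 3′ on the strand of the gene, and capitals mark the GC box GGGCGG on either strand.
Gucy1b3: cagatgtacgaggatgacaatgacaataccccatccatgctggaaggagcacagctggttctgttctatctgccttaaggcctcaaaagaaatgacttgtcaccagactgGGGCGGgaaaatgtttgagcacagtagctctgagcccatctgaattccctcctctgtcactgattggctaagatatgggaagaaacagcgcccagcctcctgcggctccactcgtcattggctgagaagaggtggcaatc
Gucy1a3: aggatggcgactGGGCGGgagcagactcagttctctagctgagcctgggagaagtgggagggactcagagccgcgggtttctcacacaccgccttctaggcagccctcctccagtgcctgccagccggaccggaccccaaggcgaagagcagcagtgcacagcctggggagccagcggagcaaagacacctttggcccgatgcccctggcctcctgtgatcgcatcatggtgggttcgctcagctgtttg
Ddah2: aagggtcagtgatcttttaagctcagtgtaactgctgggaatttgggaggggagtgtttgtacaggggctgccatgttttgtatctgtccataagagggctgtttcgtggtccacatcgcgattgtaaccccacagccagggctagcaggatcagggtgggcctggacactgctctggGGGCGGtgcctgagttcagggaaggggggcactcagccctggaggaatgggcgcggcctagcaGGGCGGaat
The GC box occurred 1 time upstream of Gucy1b3, 1 time upstream of the Gucy1a3 start shown and 2 times upstream of Ddah2. The window of the other Gucy1a3 start, whose following bases, unlike those of the start shown, were found in a GENCODE transcript, held 0. The GC box was present in 32.7% of 32,851 windows of the same length. CCAAT was found 2 times upstream of Gucy1b3 and not in the other two windows, beside 33.8% of all windows. Neither the E box CACGTG, in 6.02% of all windows, nor TATAAA, in 12.4%, was found on either strand of the 3 windows. The 250-base windows of Gucy1b3, Gucy1a3 and Ddah2 contained 51.2%, 64.0% and 58.0% G or C.

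All values are FPKM, fragments scaled to transcript length and to the size of the library, which can be compared between genes. Averaged over the 24 libraries, Ddah2 was highest with 35.9 FPKM, followed by Pde2a with 17.2 and Nos3 with 16.3. Gucy1b3 (4.33 FPKM), Gucy1a3 (3.12), Nos2 (1.70), Ddah1 (1.25) and Pde5a (0.517) were lower. These 8 genes passed the filter of a mean of 0.5 FPKM and were tested with 12,759 genes in limma. Prkg1 (0.233 FPKM) and Nos1 (0.00575 FPKM) did not pass and were compared by an exact permutation test. Log2 fold changes are on the scale of log2(FPKM + 0.5), which understates changes of low genes, and a gene is called at an adjusted p (Benjamini-Hochberg over all genes tested) under 0.05. The methods of the study describe separate animals at each time point, and p-values measure the spread between these libraries.

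Some libraries stood apart. The atrial myosin light chain Myl7 was 0.166 to 1.12 FPKM in the control libraries, 1805 and 5773 FPKM in HF week 3, and 18388, 152 and 6.16 FPKM in HF week 5 libraries 1, 2 and 3. HF week 3 library 1 had values above 0 for 12,816 genes, the other 23 libraries for 16,339 to 18,091, and it lacked the steps between low values that gave the relative depth of the others (0.730 to 1.40 times that of Control week 19 library 1). The absolute depth is unknown. Of the summed FPKM, the 10 highest genes took 14.6% to 18.8% at weeks 5 and 19 and 27.9% to 37.4% at Recovery weeks 7 to 13. Libraries 1 and 2 of HF week 3 were unlike each other in this share, with 19.8% and 37.5%. Myh6, the main ventricular myosin of the adult mouse, was listed at 0 in every library of weeks 5 and 19.

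**Figure D1:**
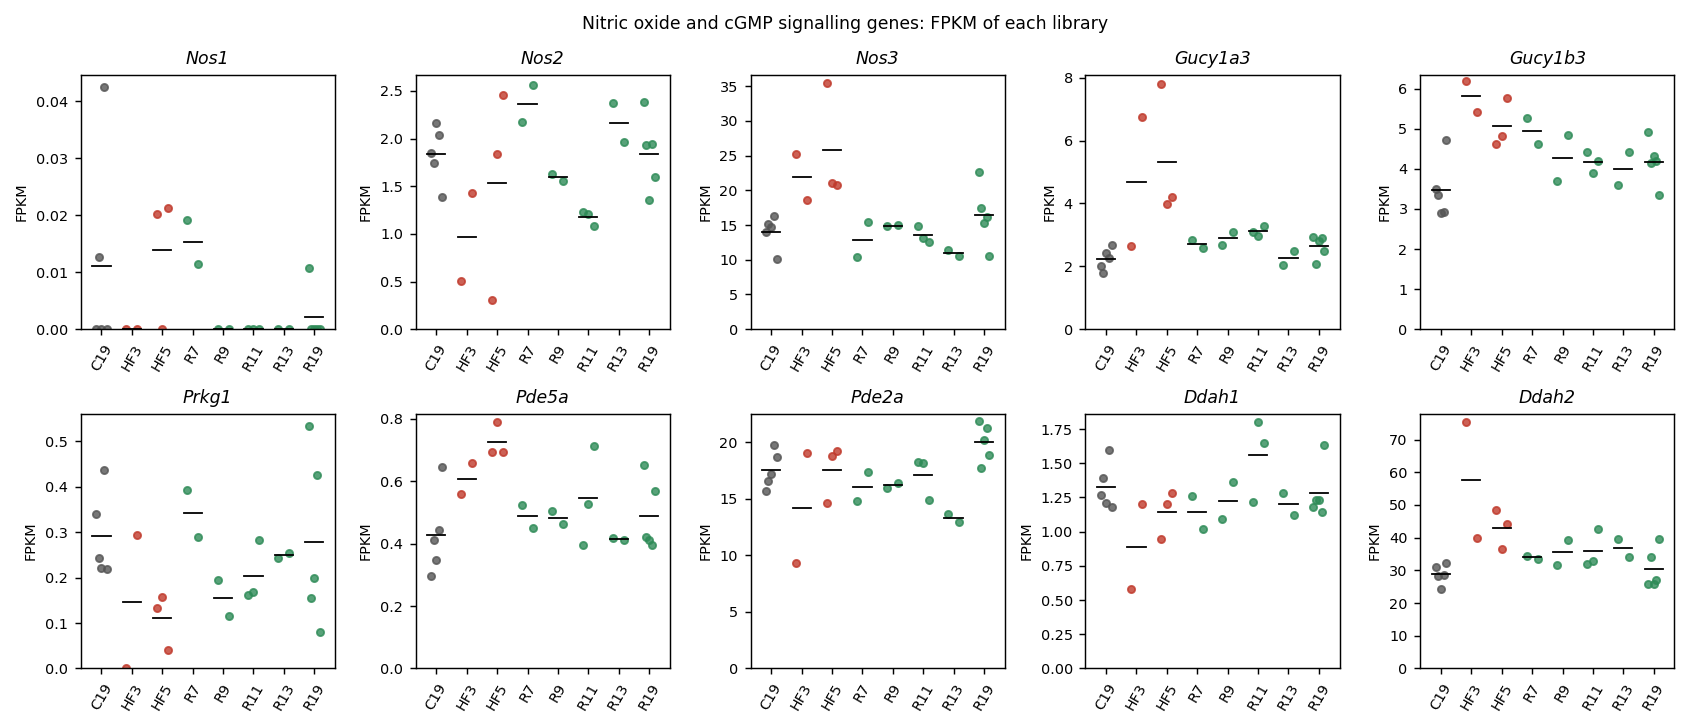
FPKM of the 10 genes (vertical axes, each from 0) in each library, by group: C19, Control week 19; HF3 and HF5, HF weeks 3 and 5; R7 to R19, Recovery weeks 7 to 19. Points are libraries and black bars group means; all 3 HF week 5 libraries lie above every control library for Nos3, Gucy1a3, Ddah2 and Pde5a and below every control library for Prkg1.

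At HF week 5, 4 of the 8 genes tested rose against Control week 19 and none fell, where 11.6% of all genes tested rose and 12.4% fell (limma, adjusted p under 0.05). Gucy1a3, Nos3, Ddah2 and Gucy1b3 were those that rose. The groups did not overlap, with HF higher, for 4 of the 8 genes (Nos3, Gucy1a3, Ddah2 and Pde5a) and for 14.8% of all genes tested. Pde5a passed the filter on low values only with its HF week 5 libraries, so its place in this count is not independent of them. The median log2 fold change was 0.45 over the 8 genes and 0.04 over all genes. In tissue RNA, more cells of a type and more RNA per cell cannot be told apart.

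Of the synthases, Nos3, which makes nitric oxide in the endothelium, was by far the most abundant. Nos3 was 14.0, 15.1, 14.7, 16.3 and 10.1 FPKM in the control libraries, and 35.4, 21.0 and 20.8 FPKM in HF week 5. Every HF week 5 library exceeded every control library, and library 1 was the highest of all 24. The log2 fold change was 0.83 (SE 0.212, adjusted p = 0.00871, limma). Without HF week 5 library 1 it was 0.58 with an adjusted p of 0.0979. The 3′ end of Nos3 overlaps Atg9b on the opposite strand, and since the strand of the libraries is not stated, reads of the overlap cannot be assigned; Atg9b was 0.386 to 0.661 FPKM in control and 1.00, 1.03 and 1.30 FPKM in HF week 5, below Nos3 in each.

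Nos2, the inducible synthase of immune and stressed cells, was 1.85, 1.74, 2.16, 2.04 and 1.39 FPKM in control and 0.310, 1.84 and 2.46 FPKM in HF week 5. The HF values spanned the control range, and library 1, highest for Nos3, was the lowest of all 24 for Nos2. The log2 fold change of Nos2 was -0.38 (SE 0.291, adjusted p = 0.360, limma), and it was 0.18 without library 1. Nos1, the neuronal synthase, was above 0 in 2 control, 2 HF week 5, 2 Recovery week 7 and 1 Recovery week 19 libraries, at most 0.0426 FPKM, and was listed at 0 in the others. An exact permutation test gave p = 0.929 for Nos1 in HF week 5 against control (two-sided). Nos3 made up 88.3% ± 0.890 (SD, n = 5) of the summed FPKM of the 3 synthases in control and 99.1%, 91.9% and 89.4% in the HF week 5 libraries.

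Of the enzymes that clear methylarginines, Ddah2, the form found in vessels and immune tissue, was 30.9, 28.2, 24.3, 28.5 and 32.3 FPKM in control and 48.3, 36.4 and 44.3 FPKM in HF week 5. The groups did not overlap, and the log2 fold change of Ddah2 was 0.57 (SE 0.181, adjusted p = 0.0291, limma). Over 18 alternatives the log2 fold change of Ddah2 stayed between 0.48 and 0.68, and 8 of them cost it its call. Among these were the fits without HF library 1 (0.48, adjusted p = 0.150), without HF library 3 (0.54, adjusted p = 0.0811) and without control library 2, 3 or 4 (adjusted p = 0.0518 to 0.0714); the highest adjusted p, 0.226, came with HF library 3 alone. Ddah1, the other form, was 1.27, 1.39, 1.21, 1.60 and 1.18 FPKM in control and 0.944, 1.20 and 1.28 FPKM in HF week 5, with overlapping groups and a log2 difference of -0.16 (SE 0.155, adjusted p = 0.497). In control the ratio of Ddah2 to Ddah1 was 22.0 ± 3.79 (SD, n = 5), and in HF week 5 it was 38.7 ± 11.1 (SD, n = 3).

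Gucy1a3, the alpha subunit of the cyclase, showed the largest log2 fold change of the 8 genes. Gucy1a3 was 2.00, 1.79, 2.43, 2.27 and 2.67 FPKM in control and 7.80, 3.97 and 4.22 FPKM in HF week 5. Again all HF libraries lay above all control libraries and library 1 was the highest of the series. The log2 fold change of Gucy1a3 was 1.04 (SE 0.218, adjusted p = 0.00235, limma). Without library 1 Gucy1a3 was still called, and with library 3 as the only HF week 5 library it was 0.80 (adjusted p = 0.141).

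Gucy1b3, the beta subunit, was 3.49, 3.34, 2.91, 2.93 and 4.72 FPKM in control and 4.61, 4.82 and 5.76 FPKM in HF week 5. The groups overlapped through control library 5, which was above HF library 1. The log2 fold change of Gucy1b3 was 0.50 (SE 0.142, adjusted p = 0.0166, limma), and without HF library 3 it was 0.41 with an adjusted p of 0.0849. The ratio of the alpha to the beta subunit was 0.657 ± 0.137 (SD, n = 5) in control and 1.69, 0.824 and 0.732 in HF week 5, where libraries 2 and 3 fell inside the control range of 0.537 to 0.834.

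Prkg1, the kinase through which cGMP relaxes smooth muscle, was low in every library. Prkg1 was 0.341, 0.243, 0.222, 0.436 and 0.220 FPKM in control and 0.134, 0.157 and 0.0418 FPKM in HF week 5. All HF values were below all control values. The exact permutation test gave p = 0.0357 (two-sided, not adjusted), the smallest that 3 against 5 libraries allow. Groups that do not overlap fix this p, so it adds nothing to the lack of overlap. The share of all genes that lay below control without overlap was not counted. The table holds a further row for this gene under the synonym Prkg1b, listed at 0 in all 24 libraries.

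Of the phosphodiesterases, Pde5a, which hydrolyses cGMP and is the target of sildenafil, was 0.296, 0.410, 0.349, 0.445 and 0.646 FPKM in control and 0.695, 0.791 and 0.694 FPKM in HF week 5. The groups did not overlap, yet Pde5a, at 0.41 on the log2 scale (SE 0.149, adjusted p = 0.0512, limma), missed the threshold. Its mean over the 24 libraries, 0.517 FPKM, passed the filter of 0.5 only with the HF week 5 libraries (mean 0.727 FPKM). Neither result is therefore independent of the filter. Pde2a, a cGMP-stimulated enzyme that hydrolyses cAMP and cGMP, was 15.7, 16.6, 17.2, 19.8 and 18.7 FPKM in control and 14.6, 18.8 and 19.2 FPKM in HF week 5. The groups of Pde2a overlapped, and its log2 fold change was -0.01 with a 95% interval from -0.35 to 0.32 (adjusted p = 0.963).

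**Figure D2:**
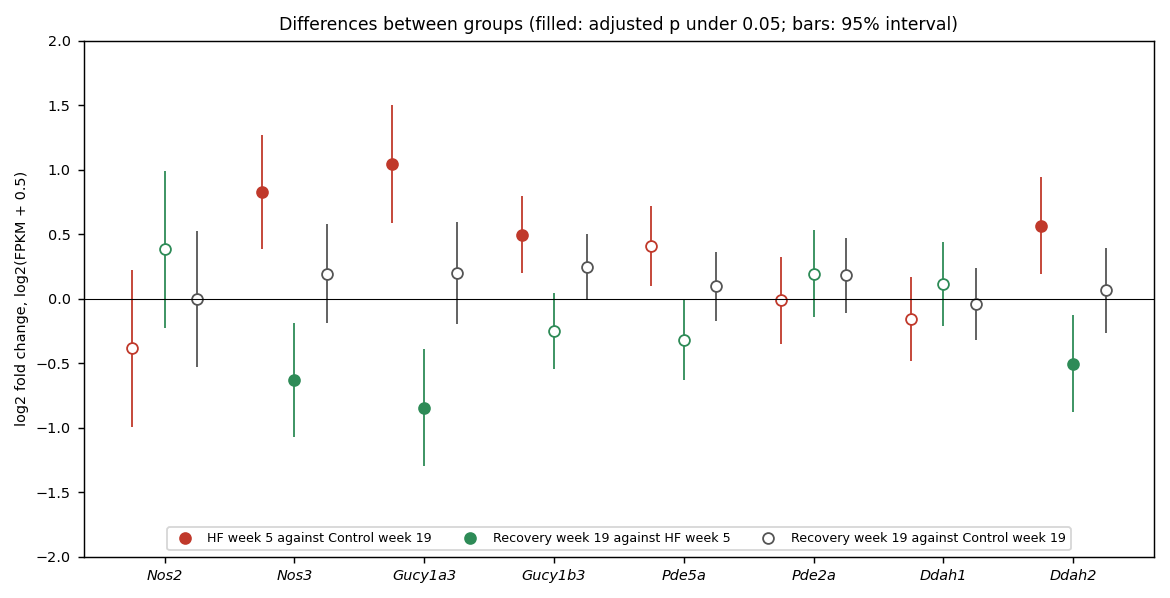
Log2 fold change on log2(FPKM + 0.5) (vertical axis) of the 8 genes tested in 3 comparisons, with bars for the 95% interval and filled points for an adjusted p under 0.05. Gucy1a3, Nos3, Ddah2 and Gucy1b3 are higher in HF week 5 than in control, Gucy1a3, Nos3 and Ddah2 are lower in Recovery week 19 than in HF week 5, and every point of Recovery week 19 against control is open.

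How far the calls of HF week 5 against control rested on single libraries was examined by leaving each out. They came to between 2 and 5 of the 8 genes. Without HF library 1, Gucy1a3 and Gucy1b3 remained. Without HF library 3, Gucy1a3 and Nos3 remained. With library 3 alone, which had the lowest Myl7 of the HF libraries, 0 of 8 genes were called by limma, and the log2 fold changes were 0.57 for Nos3, 0.80 for Gucy1a3, 0.67 for Gucy1b3 and 0.62 for Ddah2.

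Markers of several cell types moved with these genes. The counts of each list stand beside the 11.6% of all genes tested that rose and the 12.4% that fell. Of 12 endothelial markers, 6 rose and none fell at HF week 5 (median log2 fold change 0.45, all genes 0.04), and 4 rose without HF library 1; without library 3, 4 rose and 1 fell. Their summed level was 435 to 547 FPKM in control, 594 to 824 in HF week 5, 932 to 978 in HF week 3 and 443 to 492 in Recovery week 19. Among the first listed, Pecam1, an adhesion molecule of endothelial cells, rose by 0.51 (SE 0.159, adjusted p = 0.0261), but was at 0.26 without HF library 1 (adjusted p = 0.262) and at 0.54 without library 3 (adjusted p = 0.0502), whereas Cdh5, the cadherin of endothelial junctions, was at -0.03 (adjusted p = 0.925) and the receptor Tie1 at 0.27 (adjusted p = 0.0650; 0.38 without HF library 1, adjusted p = 0.0333). Of 8 smooth muscle markers 3 rose and 1 fell (sum 169 to 205 FPKM in control, 219 to 311 in HF week 5), with Acta2 at 0.96 (adjusted p = 0.00481), Tagln at 0.85 (adjusted p = 0.0141) and Myh11 at 0.70 (adjusted p = 0.0565). Without HF library 1, 1 smooth muscle marker rose and none fell, and without library 2, 2 rose; Tagln lost its call in both (0.81 and 0.70, adjusted p = 0.0686 and 0.0656). No endothelial or smooth muscle marker was at 0 in all libraries of a group. The part of these cell types in the changes of Nos3 or of the cyclase subunits was not tested.

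All 5 of the atrial cardiomyocyte markers tested rose at HF week 5 (6 listed). Their sum was 90.0 to 350 FPKM in control and 2231 to 81868 in HF week 5, 7765 to 14104 in HF week 3, where Nppa and Bmp10 were listed at 0, and 174 to 753 in Recovery week 19. Myl7, Myl4 and Sln were higher than in control by 7.78, 5.37 and 7.09 on the log2 scale, and by 4.73, 2.54 and 4.01 without HF library 1. HF week 5 library 3 had the lowest Myl7 of the HF libraries, 6.16 FPKM, and the lowest atrial sum, 2231, both still above all controls. Nppa made up most of the HF week 5 sums, at 2100 to 42004 FPKM, and was listed at 0 in HF week 3. The sums therefore say little about the other atrial markers. In HF week 5 library 3, Nos3, Gucy1a3, Gucy1b3, Ddah2 and Pde5a were above every control library. The part of atrial tissue in the changes of these genes was not tested. Of 8 fibroblast markers 5 rose and none fell (sum 294 to 435 FPKM in control, 405 to 848 in HF week 5), with Pdgfra at 0.54 (adjusted p = 0.0178), Dcn at 0.95 (adjusted p = 0.00836) and Col1a1 at 0.38 (adjusted p = 0.166). Without HF library 1, 1 fibroblast marker rose, with Pdgfra at 0.43 (adjusted p = 0.127) and Dcn at 0.76 (adjusted p = 0.0760), and without library 3, 3 rose, with Pdgfra at 0.49 (adjusted p = 0.0658). Of 6 pericyte markers 2 rose, Pdgfrb by 0.59 among them, and 1 fell, while Rgs5 was at -0.66 (adjusted p = 0.139; called lower without HF library 3, adjusted p = 0.0454) and Kcnj8 at 0.05 (adjusted p = 0.910). The pericyte counts were 2 and 0 without HF library 1, 1 and 1 without library 2, and 1 and 2 without library 3. Pericyte sums were 77.9 to 88.2 FPKM in control and 46.8 to 102 in HF week 5. Of 10 ventricular cardiomyocyte markers Pln fell, and Myl2 counted as higher through values listed at 0 in all 5 control libraries, so that call is not read as a change of expression; 0 fell without HF library 1 and 3 without library 2. The others included Tnnt2 at -0.20 (adjusted p = 0.347) and Ryr2 at -0.41 (adjusted p = 0.117). Myh6 was listed at 0 in both groups, and the sums of the other 8 markers, Myl2 left out, were 33570 to 40982 FPKM in control and 21432 to 38699 in HF week 5. Of 10 markers of macrophages and other leukocytes limma called 0 (sum 328 to 536 FPKM in control, 383 to 710 in HF week 5), with Csf1r at 0.41 (adjusted p = 0.220), Cd68 at -0.24 (adjusted p = 0.781) and Emr1 at 0.19 (adjusted p = 0.678).

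**Figure D3:**
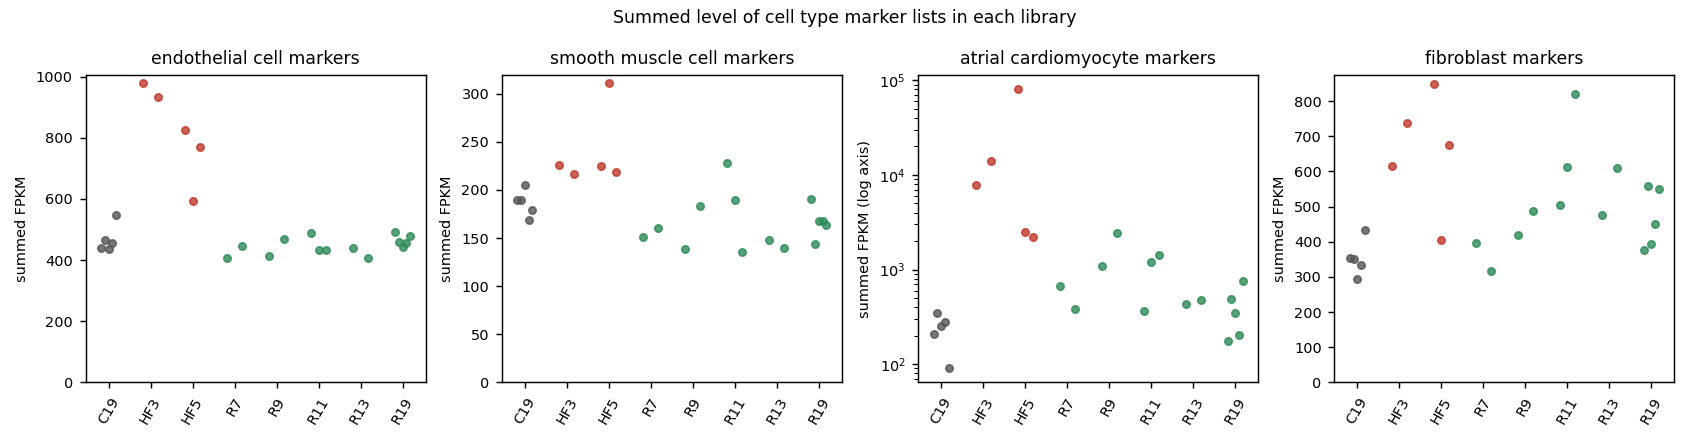
Summed FPKM of 4 cell type marker lists in each library (points), by group as C19, HF3, HF5 and R7 to R19; the axis of the atrial markers is logarithmic and the others start at 0. Endothelial sums are 594 to 824 in HF week 5 and 435 to 547 in control, and atrial sums reach 81868 in 1 HF week 5 library.

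The next comparison asked whether the genes changed back after the agents were withdrawn. Of the 8 genes, 3 fell from HF week 5 to Recovery week 19 and none rose, where 12.0% of all genes tested fell and 12.3% rose. Both comparisons share the HF week 5 libraries, so a high HF value enters both. Markers of other cell types moved in the same comparison: 5 of 12 endothelial, 4 of 8 smooth muscle, 5 of 5 atrial and 2 of 8 fibroblast markers fell, and their part in the changes of these genes was not tested. Without HF week 5 library 1, 4 endothelial, 3 smooth muscle, 5 atrial and 1 fibroblast markers fell. Gucy1a3 was 2.92, 2.06, 2.80, 2.91 and 2.48 FPKM in Recovery week 19, all below the HF week 5 libraries, and fell by 0.84 on the log2 scale (SE 0.218, adjusted p = 0.00906, limma). Nos3 was 22.6, 17.4, 15.3, 16.1 and 10.6 FPKM, of which library 1 lay inside the HF range, and it fell by 0.63 (SE 0.212, adjusted p = 0.0353). Ddah2 was 25.8, 34.1, 25.7, 27.1 and 39.5 FPKM, of which library 5 lay inside the HF range, and it fell by 0.50 (SE 0.181, adjusted p = 0.0492). The groups did not overlap, with recovery lower, for Gucy1a3 and Pde5a, that is 2 of the 8 genes, and for 12.7% of all genes tested. Pde5a passed the filter on low values only with its HF week 5 libraries.

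Gucy1b3 was 4.91, 4.14, 4.33, 4.20 and 3.34 FPKM in Recovery week 19, overlapping HF week 5, and its log2 fold change was -0.25 (SE 0.142, adjusted p = 0.212, limma). Pde5a was 0.651, 0.420, 0.411, 0.397 and 0.570 FPKM (log2 fold change -0.32, adjusted p = 0.130). Prkg1, at 0.534, 0.156, 0.199, 0.426 and 0.0806 FPKM, spanned the control values and overlapped HF week 5, and the exact permutation test against HF week 5 gave p = 0.214. Nos2 (log2 fold change 0.38), Pde2a (0.19) and Ddah1 (0.11) had overlapping groups and were not called. Without HF week 5 library 1, limma called 0 of the 8 genes, with log2 fold changes of -0.56 for Gucy1a3 (adjusted p = 0.0998), -0.38 for Nos3 (adjusted p = 0.273) and -0.41 for Ddah2 (adjusted p = 0.206). Nos3 also lost its call without Recovery library 3, 4 or 5 (adjusted p = 0.0565 to 0.0753), and Ddah2 without HF library 3 or Recovery library 1, 2, 3 or 4 (adjusted p = 0.0518 to 0.121). Without Recovery week 19 library 3, or without library 4, 1 gene was called. Over 18 alternatives, Ddah2 lost its call in 11, Nos3 in 7 and Gucy1a3 in 2.

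Recovery week 19 was then set against Control week 19, the pair of equal age. Limma called 0 of the 8 genes, and 0 had an unadjusted p under 0.05, beside 2.88% of all genes tested. Of all genes tested 0.0235% were called. The log2 fold changes ranged from -0.04 (Ddah1) to 0.25 (Gucy1b3). For Gucy1a3 the 95% interval ran from -0.20 to 0.59, for Nos3 from -0.19 to 0.58, for Gucy1b3 from -0.01 to 0.50 and for Ddah2 from -0.26 to 0.39, so that differences up to these bounds were not excluded. Exact permutation tests gave p = 0.881 for Prkg1 and p = 0.444 for Nos1.

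The intermediate time points were then set against HF week 5 and control. Their libraries differ from both in how the values are spread. The 10 highest genes took 27.9% to 37.4% of the summed FPKM, against 14.6% to 18.8%. Myh6 was 106008 to 316195 FPKM, against a listed 0. The part of this difference in the changes was not tested. In Recovery weeks 7 to 13, Nos3 was 10.4 to 15.4 FPKM with a median of 13.1 in the 9 libraries, below every HF week 5 library. Gucy1a3 was 2.04 to 3.29 FPKM with a median of 2.83, also below every HF week 5 library. Both fell against HF week 5, Nos3 by 0.92 (SE 0.194, adjusted p = 0.00253, limma) and Gucy1a3 by 0.79 (SE 0.200, adjusted p = 0.00793), and they were the only ones of the 8 genes called, where 10.9% of all genes tested fell. Without HF week 5 library 1, Nos3 was called at -0.67 (adjusted p = 0.0449) and Gucy1a3, at -0.51, was not (adjusted p = 0.123). In the same comparison 7 of 12 endothelial, 6 of 8 smooth muscle and 5 of 5 atrial markers fell (4, 6 and 4 without HF week 5 library 1); their part in the changes was not tested. Ddah2 was 31.7 to 42.6 FPKM with a median of 34.0, with libraries inside the HF week 5 range (log2 fold change -0.27, adjusted p = 0.253). Against Control week 19, limma called 0 of the 8 genes and 0.0705% of all genes tested; at an unadjusted p under 0.05 there were 2, Gucy1b3 (0.29, adjusted p = 0.576) and Ddah2 (0.30, adjusted p = 0.713), beside 6.90% of all genes tested.

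At HF week 3, the same 4 genes were called higher than in Control week 19, where 23.1% of all genes tested rose. Nos3 was 25.2 and 18.6 FPKM in HF week 3, Gucy1a3 2.64 and 6.75, Gucy1b3 6.19 and 5.43, and Ddah2 75.3 and 40.0. Both libraries lay above all controls for Nos3, Gucy1b3 and Ddah2, whereas for Gucy1a3 library 1 was inside the control range. The log2 fold changes were 0.92 for Ddah2 (adjusted p = 0.00124), 0.81 for Gucy1a3 (adjusted p = 0.0111), 0.68 for Gucy1b3 (adjusted p = 0.00206) and 0.63 for Nos3 (adjusted p = 0.0377). Of the marker lists, 8 of 12 endothelial markers rose and 1 fell (median 0.66). With them rose 4 of 5 atrial and 5 of 8 fibroblast markers (median 1.23). The atrial marker Nppa counted as lower through a listed 0 in both HF week 3 libraries. That call is not read as a change of expression. Of 10 ventricular markers 4 fell (median -0.46, all genes -0.05), and Myl2 and Myh6 counted as higher through a listed 0 in control. Smooth muscle markers went both ways (2 of 8 rose, 2 fell). The part of these cell types in the changes was not tested. Without either HF week 3 library the remaining one is assumed to vary like the other groups. The count was 2 without library 1, the one with fewer genes above 0, where Nos3 was at 0.41 (adjusted p = 0.338) and Ddah2 at 0.47 (adjusted p = 0.113). Nos3 also lost its call without control library 1 or 5 (adjusted p = 0.0530 and 0.0765). It was 6 without library 2, where Gucy1a3 was at 0.21 and lost its call (adjusted p = 0.478); without library 1 Gucy1a3 was at 1.42. Pde2a was 9.32 and 19.1 FPKM and Ddah1 0.579 and 1.20 FPKM in HF week 3, and neither was called with both libraries in the fit. Library 1 lay below every control library for both genes. Between HF week 5 and HF week 3, limma called 0 of the 8 genes, also 0 at an unadjusted p under 0.05, while of all genes tested 21.4% were called and 39.1% had such an unadjusted p.

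Recovery weeks 7 to 13 were also set against HF week 3, with all 24 libraries in the fit. They were lower for 4 of the 8 genes, where 23.9% of all genes tested fell. The log2 fold changes were -0.72 for Nos3 (adjusted p = 0.0124), -0.63 for Ddah2 (adjusted p = 0.0115), -0.56 for Gucy1a3 (adjusted p = 0.0497) and -0.39 for Gucy1b3 (adjusted p = 0.0401). Of the marker lists, 8 of 12 endothelial (median -0.70), 4 of 5 atrial and 5 of 8 fibroblast markers (median -0.81) fell too. The atrial marker Nppa counted as higher through a listed 0 in both HF week 3 libraries. That call is not read as a change of expression. Of 10 ventricular markers 5 rose (median 0.68, all genes 0.04). Smooth muscle markers went both ways (2 of 8 rose, 3 fell). The part of these cell types in the changes was not tested. With 1 HF week 3 library left, the spread again comes from the other groups. Without HF week 3 library 1 only Gucy1a3 was called (-1.17, adjusted p = 0.00156), and Ddah2 was at -0.175 (adjusted p = 0.571), Nos3 at -0.51 (adjusted p = 0.218) and Gucy1b3 at -0.30 (adjusted p = 0.281). Without HF week 3 library 2, Gucy1a3 was at 0.04 (adjusted p = 0.895) and Ddah2 at -1.08 (adjusted p = 2.42e-04). Over 19 alternatives Gucy1a3 lost its call in 14 and changed sign in 1, and Gucy1b3 lost its call in 9. Both lost it without Recovery week 7 library 2, week 9 library 1, week 11 library 2 or week 13 library 1, where the count was 2.

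In the order of the group means, HF weeks 5 and 3 held the first 2 places for Nos3, Gucy1a3, Gucy1b3, Pde5a and Ddah2. They held the last 2 for Prkg1, where no neighbours in the order differed beyond their spread. Prkg1 in HF week 3 was 0 FPKM in library 1 and 0.295 in library 2, above the control median of 0.243. For Nos3 the mean was 25.8 ± 8.37 FPKM (SD) in HF week 5 and 21.9 ± 4.66 in HF week 3, which did not differ beyond their spread, and the step from HF week 3 to the third place, Recovery week 19 with 16.4 ± 4.31, was larger than either SD. For Gucy1a3 (5.33 ± 2.14 in HF week 5 to 2.23 ± 0.345 in control) no neighbours in the order differed beyond their spread. For Gucy1b3 and Ddah2, HF week 3 was first (5.81 ± 0.541 and 57.6 ± 24.9 FPKM) and control was last (3.48 ± 0.737 and 28.8 ± 3.06 FPKM). Pde2a kept another order, from 20.0 ± 1.73 FPKM in Recovery week 19 to 13.3 ± 0.515 in week 13. Nos2 was highest in Recovery week 7 (2.37 ± 0.280) and lowest in HF week 3 (0.967 ± 0.648), and Ddah1 ran from 1.56 ± 0.303 in Recovery week 11 to 0.891 ± 0.441 in HF week 3.

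Other genes of the pathway were called about as often as genes in general. Of 59 genes in 6 lists, 41 passed the filter, and at HF week 5 against control 5 rose (12.2%) and 6 fell (14.6%), beside 11.6% and 12.4% of all genes tested, with a median log2 fold change of 0.04 that equalled that of all genes. In Recovery week 19 against HF week 5, 6 rose (14.6%) and 5 fell (12.2%), beside 12.3% and 12.0% of all genes; without HF library 1, 4 rose and 2 fell. Against control limma called 0 of the 41. Of the 12 proteins that bind or modify the synthases, 11 were tested and 3 fell: Calm3, a calmodulin gene, by 0.74 (SE 0.134, adjusted p = 8.50e-04), the kinase Akt1, which phosphorylates Nos3, by 0.68 (SE 0.121, adjusted p = 7.28e-04) and the chaperone Hsp90ab1 by 0.56 (SE 0.184, adjusted p = 0.0328). Hsp90ab1 was at -0.33 without HF library 1 (adjusted p = 0.267), and its call was also lost without any one of control libraries 1 to 4 (adjusted p = 0.0513 to 0.0645). All 3 rose again from HF week 5 to Recovery week 19. None of the 7 enzymes of tetrahydrobiopterin, the cofactor of the synthases, was called (median -0.14), nor any of the 5 tested of 10 genes of arginine and methylarginine handling (median -0.08).

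The natriuretic peptide receptors are another source of cGMP in the heart. Of 10 genes of other guanylate cyclases and natriuretic receptors only 3 were tested, and 2 rose: Npr3, which clears the peptides, by 2.03 (SE 0.383, adjusted p = 0.00114; 1.20 without HF library 1) and Npr1, the receptor cyclase of atrial and brain natriuretic peptide, by 0.62 (SE 0.137, adjusted p = 0.00333). Of 9 other phosphodiesterases that hydrolyse cGMP or belong to such complexes, 7 were tested. Pde9a, selective for cGMP, rose by 1.20 (SE 0.242, adjusted p = 0.00182; 0.78 without HF library 1, adjusted p = 0.0199) and the calmodulin-dependent Pde1b by 0.69 (SE 0.146, adjusted p = 0.00251). Pde3a, whose cleavage of cAMP is inhibited by cGMP, fell by 1.39 (SE 0.301, adjusted p = 0.00300), and Pde6d fell by 0.53 (SE 0.179, adjusted p = 0.0382). The call of Pde6d was lost without any one of the HF week 5 libraries 1, 2 and 3 (adjusted p = 0.153, 0.0524 and 0.0826) and without any one of control libraries 1 to 4 (adjusted p = 0.0666 to 0.0757). Of 11 genes of protein kinase G and its substrates or effectors, 8 were tested. Mrvi1, which links the kinase to calcium release in smooth muscle, rose by 1.14 (SE 0.271, adjusted p = 0.00540), and Pln, phospholamban, fell by 0.87 (SE 0.248, adjusted p = 0.0157). HF library 1 carried much of both: Mrvi1 was 10.1 FPKM there and 2.64 and 2.62 in the other HF libraries, against 1.35 to 1.80 in control, and its log2 fold change without library 1 was 0.56 (adjusted p = 0.0289). Pln without library 1 was at -0.36 (adjusted p = 0.144). Each of these 11 genes was called in the opposite direction in Recovery week 19 against HF week 5, a comparison with the same HF libraries.

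**Figure D4:**
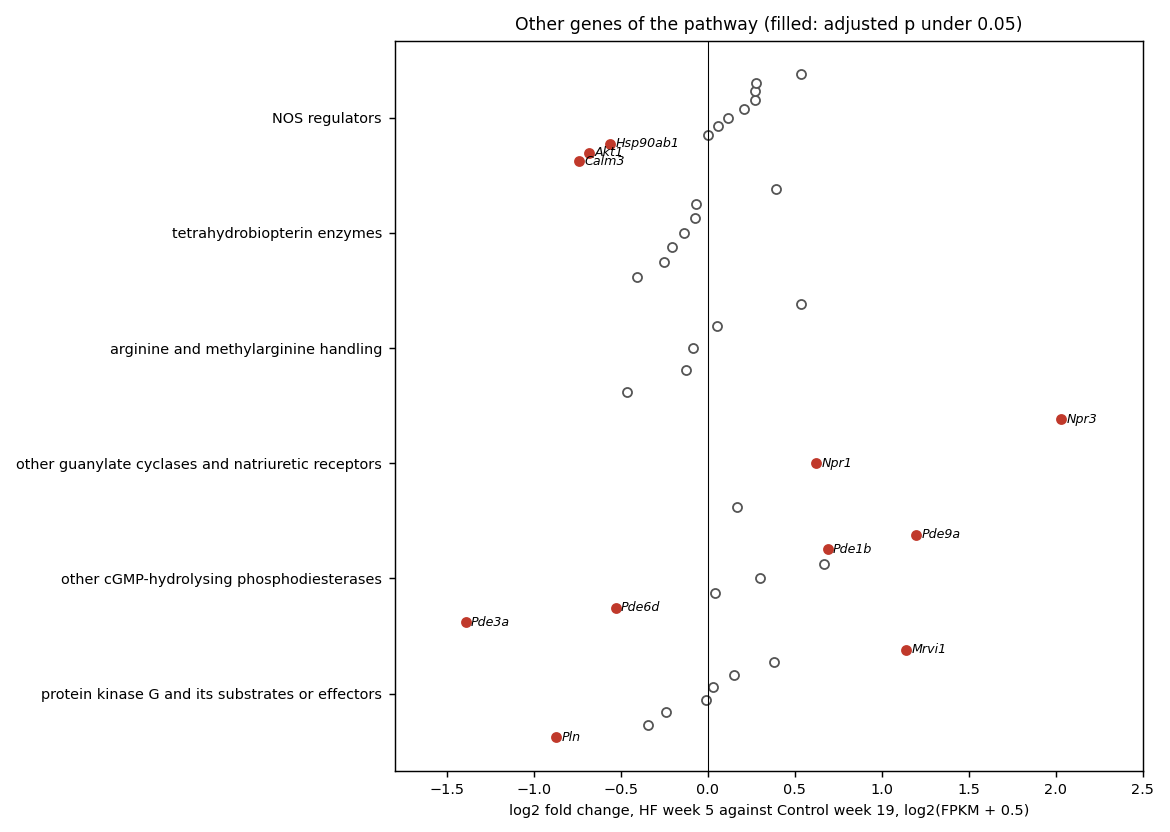
Log2 fold change of HF week 5 against Control week 19 on log2(FPKM + 0.5) (horizontal axis) for the 41 genes tested of 6 pathway lists (rows; each point is a gene, spread vertically within its row). Filled, named points have an adjusted p under 0.05; 5 lie to the right of 0 and 6 to the left.

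The genes whose values over the 24 libraries were most like those of the 4 genes called were found by the root mean square distance of log2(FPKM + 0.5), each gene centred on its own mean. For Ddah2 these were Psmd4 (0.130), Nfkbil1 (0.138) and Gng10 (0.138). For Gucy1a3 they were Nr2f2 (0.160), Fam115a (0.172) and AK142077 (0.194), for Gucy1b3 Engase (0.167), Swap70 (0.171) and Ankfy1 (0.171), and for Nos3 Nlgn2 (0.195), Sorbs3 (0.203) and Fam38a (0.213). None of the 10 genes was among the 3 nearest of any of these 4.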

How the data were processed

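Values of 24 mouse heart libraries in 8 groups were used. The FPKM deposited by the authors came from poly(A)-enriched, paired-end reads aligned with TopHat to MGSCv37 (mm9) and quantified with Cuffdiff; the gene annotation and the library strand are not given in the sources used here. The week in each column name gave its group. Left out were 5 columns of single-sample values named for week 5 controls, a group with 4 labelled samples; for Recovery week 9 there are 3 labelled samples but 2 columns.

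The filter kept genes averaging 0.5 FPKM or more, and limma 3.58.1 (R 4.3.3) modelled log2(FPKM + 0.5) by group means (16 residual degrees of freedom), eBayes with trend, two-sided tests and Benjamini-Hochberg adjustment over 12,759 genes. Members under the filter had an exact permutation test of mean FPKM (scipy 1.17.1). The limma step was tested on simulated data: in HF week 5 against Control week 19, limma called 75% of 100 genes shifted by 1 in log2 units and 96% of 100 shifted by 2. The depth is unknown, so precision is the spread between libraries. Alternatives were pseudocounts of 0.1 and 1, no filter or a mean of 1 FPKM, only the groups compared, median centring, quantile normalization, unadjusted p-values and each library left out; fits without the HF week 3 libraries, without HF week 5 libraries 1 and 2, HF week 5 against HF week 3, and the alternatives for the other pathway genes and the marker lists were added after seeing the data. Named are the members, up to 4 genes per pathway list called in HF week 5 against control without overlap of the libraries, the first 3 genes of each marker list, and the 3 genes nearest to each member called; Atg9b, Nppa, Bmp10 and Myl2 were chosen after their values were seen. The members and lists were chosen with earlier results of these data known. Promoter sequences came from RefSeq (GRCm38.p6) by symbol.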

Additional observations from a re-analysis of the deposited data

Results flagged for a closer look

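In Recovery week 19, Nos1 was 0.0107 FPKM in library 1 and listed at 0 in the other 4 libraries, which set library 1 apart from its group, as any value above 0 would have done. Ddah1 was 1.63 FPKM in library 5 of the same group, with the other 4 libraries between 1.14 and 1.23 FPKM. For values that are not mostly 0, chance sets a library apart in this way in about 1 of 20 groups.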

How the results depend on the processing

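No paired analysis was possible because the columns carry no letter of the sample titles. Single-gene results under the alternatives numbered 614. They covered all 8 genes tested in HF week 5 against Control week 19 and in Recovery week 19 against either group. In the other comparisons they covered only the genes called, where no call could be gained. Of the 614, 521 kept their direction and their side of the threshold. The direction stayed and the call was lost in 69, a call was gained in 6 and the sign changed in 18. The cause was not tested. Leaving out 1 library at a time, the number of the 8 genes called was 2 to 5 in HF week 5 against Control week 19, 0 to 3 in Recovery week 19 against HF week 5, 2 to 6 in HF week 3 against Control week 19, 1 to 2 in Recovery weeks 7 to 13 against HF week 5 and 1 to 6 in Recovery weeks 7 to 13 against HF week 3. In HF week 5 against Control week 19 and in both recovery comparisons with HF week 5, 0 genes were called with HF week 5 libraries 1 and 2 left out, where the lone library is assumed to vary like the other groups. In Recovery week 19 against HF week 5, 1 gene was called with no filter on low values and 1 with only the groups compared, where fewer libraries set the spread. With only the groups compared, 2 genes were called in HF week 3 against Control week 19, and with no filter 2 in Recovery weeks 7 to 13 against HF week 3. At an unadjusted p under 0.05, 2 were called in Recovery weeks 7 to 13 against Control week 19 (6.90% of all genes), where 0 were called after adjustment.

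Of the genes that changed sign, Gucy1a3 in Recovery weeks 7 to 13 against HF week 3 was the only one called. In HF week 5 against Control week 19, Nos2 ranged from -0.75 to 0.18 with 1 library left out and was 0.35 without HF libraries 1 and 2; Pde2a ranged from -0.082 to 0.11 and was 0.12 without these libraries and 0.011 under quantile normalization. In Recovery week 19 against HF week 5, Nos2 ranged from -0.18 to 0.75 and was -0.35 without HF libraries 1 and 2, where Ddah1 was -0.01. In Recovery week 19 against Control week 19, Nos2 ranged from -0.081 to 0.077, Ddah1 from -0.11 to 0.009 and Ddah2 from -0.034 to 0.12. In Recovery weeks 7 to 13 against HF week 3, Gucy1a3 ranged from -1.17 to 0.04. Of 18 alternatives for HF week 5 against Control week 19, Gucy1a3 kept its call in 17 (adjusted p 2.07e-04 to 0.141, the alternative of unadjusted p-values left out of these ranges), Nos3 in 16 (0.00558 to 0.307), Gucy1b3 in 16 (0.00229 to 0.0955) and Ddah2 in 10 (0.00681 to 0.226), while Pde5a gained one in 5 of 16. Median centring moved the share of genes called that were higher from 48.4% to 37.4% in HF week 5 against Control week 19, from 50.7% to 60.3% in Recovery week 19 against HF week 5 and from 50.7% to 65.4% in Recovery weeks 7 to 13 against HF week 5.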
